A study of Mus musculus with 10 samples.

Results

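The genes described here are the Hox genes of the mouse, taken as every gene whose symbol in the array's probe annotation is Hoxa, Hoxb, Hoxc or Hoxd followed by a number. RefSeq lists 39 such genes in 4 clusters, on chromosome 6 (Hoxa), chromosome 11 (Hoxb), chromosome 15 (Hoxc) and chromosome 2 (Hoxd). Of these, 31 had a probe set of their own, of 12393 genes named by single-gene probe sets on the array, and they were read by 37 probe sets. The others were not analysed here. A further 3 probe sets name a pair of Hox genes each and 1 reads the antisense transcript Hoxa11os, and these 4 were kept apart.

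RNA came from primary mouse embryonic fibroblasts, the connective tissue cells that grow out of a dissociated embryo, made from E13.5 embryos of mixed C57BL/6 and 129 background (E13.5 is the embryonic day). The 10 arrays fall into 3 groups: wild type (3 arrays), Snf5-/- (3 arrays) and Brg1-/- (4 arrays). Snf5 (Smarcb1) is a core subunit of the SWI/SNF chromatin remodelling complex, and Brg1 (Smarca4) is one of its ATPases. Cre was delivered by retrovirus to the cells of all 3 groups, wild type included, and puromycin (2.5 ug/ml) then removed the cells that had not taken up the virus, so the controls carry Cre and the selection too. The labels do not say whether arrays of a group came from separate embryos or cultures, so p-values measure only the spread between these arrays, and the number of arrays limits the precision.

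Hox genes code for homeodomain transcription factors that give cells of the embryo their position along the head-to-tail axis and along the limb. Within a cluster the order of the genes on the chromosome follows the order of their expression domains: low paralogue numbers act towards the head, and high numbers towards the tail and the tips of the limbs. Hoxd13 and Hoxa13 pattern the digits, Hoxd11 and Hoxa11 the forearm, and Hoxa9 is best known in blood, where it acts with Meis1 in leukaemia. Fibroblasts in culture are known to keep the Hox pattern of the site they came from. In Drosophila the Brg1 homologue Brahma is a trithorax group protein, a class that keeps Hox genes active against Polycomb repression.

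The promoters shown are those of the genes that the results turn on: Hoxd13 and Hoxd11, which rose in Brg1-/- cells, Hoxd12, which lies between them, and Hoxa9, which differed between the mutants. Each run is the 250 bases before an annotated start in RefSeq on build GRCm38.p6, written 5′ to 3′ on the gene's own strand with CG dinucleotides in capitals. Hoxd13 is at chr2:74667975-74668224, Hoxd12 at chr2:74674763-74675012, and Hoxd11 has windows at chr2:74679308-74679557 and chr2:74682073-74682322, all on the plus strand. The Hoxa9 window is at chr6:52227371-52227620 on the minus strand.
Hoxd13: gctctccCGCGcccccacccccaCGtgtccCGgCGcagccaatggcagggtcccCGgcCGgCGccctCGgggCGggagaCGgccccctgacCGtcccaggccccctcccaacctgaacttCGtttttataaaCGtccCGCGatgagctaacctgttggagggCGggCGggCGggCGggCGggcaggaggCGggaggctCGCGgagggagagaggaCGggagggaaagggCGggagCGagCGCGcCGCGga
Hoxd12: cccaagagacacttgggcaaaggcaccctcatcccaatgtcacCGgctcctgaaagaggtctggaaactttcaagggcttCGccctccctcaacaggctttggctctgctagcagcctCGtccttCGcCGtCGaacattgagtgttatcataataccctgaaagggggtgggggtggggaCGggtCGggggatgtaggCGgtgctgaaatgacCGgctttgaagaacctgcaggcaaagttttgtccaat
Hoxd11, first start: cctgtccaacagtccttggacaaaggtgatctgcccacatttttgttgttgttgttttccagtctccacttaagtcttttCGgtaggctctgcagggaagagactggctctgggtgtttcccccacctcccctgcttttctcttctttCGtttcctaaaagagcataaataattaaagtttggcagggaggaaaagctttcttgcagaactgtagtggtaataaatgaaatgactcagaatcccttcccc
Hoxd11, second start: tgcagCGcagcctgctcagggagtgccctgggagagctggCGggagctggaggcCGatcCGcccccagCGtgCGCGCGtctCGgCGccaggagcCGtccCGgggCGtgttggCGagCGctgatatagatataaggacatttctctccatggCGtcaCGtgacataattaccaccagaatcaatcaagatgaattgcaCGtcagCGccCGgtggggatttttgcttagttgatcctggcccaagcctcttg
Hoxa9: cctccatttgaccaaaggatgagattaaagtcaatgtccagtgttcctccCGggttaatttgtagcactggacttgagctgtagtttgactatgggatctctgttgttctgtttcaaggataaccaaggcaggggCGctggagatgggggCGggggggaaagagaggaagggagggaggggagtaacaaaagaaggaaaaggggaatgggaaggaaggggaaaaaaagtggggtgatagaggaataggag

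The Hoxd13 window held 31 CG dinucleotides in a sequence of 74.4% G and C, more than 94.8% of the 32851 mouse windows of the same length, whose quartiles were 2, 6 and 16. The neighbouring Hoxd12 window held 10, and the Hoxd11 windows held 2 at the first start and 20 at the second. The Hoxa9 window held 3. The GC-box core GGGCGG, sought on both strands, matched 7 times before Hoxd13, 1 time before the second Hoxd11 start and 1 time before Hoxa9, and 32.7% of all windows held at least 1 match. TATAAA matched before Hoxd13 only among the windows shown, in 2 overlapping matches on opposite strands, against 12.4% of all windows with a match. CCAAT matched 1 time before Hoxd13 and 2 times before Hoxd12, against 33.8% of all windows. Windows were matched for 18 of the 31 measured genes. Over the 24 windows of all matched Hox genes, the CG count ran from 2 to 35 with a median of 12.5. A match describes these letters only, not a bound site.

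The arrays differed in brightness. Deposited array medians ran from 145.6 to 233.65, and against wild type the median log2 difference over all tested probe sets was -0.30 in Snf5-/- and -0.47 in Brg1-/- cells. Values below are therefore quantile-normalized intensities unless the deposited scale is named, and differences are log2 with their standard error (SE). An adjusted p is limma's, with Benjamini-Hochberg adjustment over the 14506 probe sets tested, and a probe set changed where it was under 0.05. The targeted genes followed the labels in these probe sets: Smarcb1 (1416045_a_at) read 741 to 832 in wild type and 297 to 299 in Snf5-/- arrays, and Smarca4 (1426804_at) read 2062 to 2407 in wild type and 446 to 685 in Brg1-/- arrays. This Smarcb1 probe set was also higher in Brg1-/- than in wild type cells (0.45, adjusted p 0.00993 by limma). A dimmer Smarcb1 probe set (1435856_x_at) did not pass in Snf5-/- cells (-0.96, adjusted p 0.201 by limma). A second Smarca4 probe set (1426805_at) was lower in Brg1-/- cells (-1.82, adjusted p 2.3e-05 by limma). All 17 probe sets of 10 fibroblast marker genes were above background in at least 1 array of every group, and their summed intensity was 109765 to 120300 in wild type cells, 133576 to 143504 in Snf5-/- cells and 100244 to 127577 in Brg1-/- arrays. By limma after normalization, 5 of the 17 were higher and 1 lower in Snf5-/- cells, against 8.71% and 8% of all. On the deposited scale 2 were higher and 2 lower, against 2.81% and 17.7%. In Brg1-/- cells 2 were higher, of Col3a1 and Pdgfra, and 3 lower, of Pdgfrb (both probe sets) and Vim, against 13% and 12.1%. On the deposited scale 0 were higher and 10 lower, against 3.21% and 42.8%. The macrophage and leukocyte markers summed to 10135 in Snf5-/- replicate 2 and to 2461 to 6063 in the other arrays.

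Many, but not all, of the measured Hox genes gave a signal above background in every array. Background was taken per array as the highest of 27 control probe sets for Bacillus subtilis RNA, which mouse cells lack, and it lay between 26.7 and 57.4 deposited units. Taking each gene's most often detected probe set, 17 genes were above background in all 10 arrays, 13 in some of them and 1, Hoxb13, in none. Hoxb13, which acts in the tail and prostate, read at most 14.4 deposited units. One of the Hoxa4 probe sets (1420226_x_at) was also at background in all arrays. Per array, 24 to 32 of the 37 probe sets were above background. Deposited values were set against each array's own background, which was lowest in wild type replicates 1 and 2 (26.7 and 28.1). Those arrays also had the highest deposited medians (233.65 and 199.95). The part of this in differences of detection between groups was not tested.

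The measured genes of lowest number in each cluster, Hoxa2, Hoxb1, Hoxc4 and Hoxd1, were above background in 1, 2, 5 and 1 of 10 arrays. In the Hoxa cluster, Hoxa2, the second Hoxa4 probe set (1427354_at) and Hoxa7 were at background in all Snf5-/- and all Brg1-/- arrays, and above it in 1, 1 and 2 of 3 wild type arrays. The untested Hoxa3 probe set (1427433_s_at) was above background in 2 of 3 wild type, 3 of 3 Snf5-/- and 0 of 4 Brg1-/- arrays. Fitted without the filter, it differed between the mutants by -1.67 ± 0.81 (adjusted p 0.322 by limma). The tested Hoxa3 probe set (1452421_at) was above background in all 10 arrays. In the Hoxb cluster, Hoxb1 was above background in 1 wild type and 1 Snf5-/- array and Hoxb5 in 2 wild type and 2 Brg1-/- arrays, whereas Hoxb7 was above it in all wild type and Snf5-/- arrays and in 1 of 4 Brg1-/- arrays. In the Hoxc cluster, Hoxc4 was above background in 5 arrays, Hoxc5 in 5 and Hoxc13 in 7. In the Hoxd cluster, Hoxd1 was above background in 1 wild type array, and Hoxd12 in 1 wild type, 3 Snf5-/- and 1 Brg1-/- array.

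The 15 probe sets left out of the test, which stand for 12 genes without another tested probe set and for second probe sets of Hoxa3 and Hoxc6, did not reach its filter (at or above the 40th percentile of the array in at least 3 arrays). The 22 tested probe sets read 19 genes: 7 probe sets in Hoxa, 6 in Hoxb, 4 in Hoxc and 5 in Hoxd. Hoxa7, a gene of the trunk skeleton, shows what was left untested: it read 40.8, 41 and 37.8 deposited units in wild type cells, 12.3, 13.2 and 18.3 in Snf5-/- cells and 20.9, 19.4, 11.5 and 20.3 in Brg1-/- arrays. The wild type arrays were above all mutant arrays, but the third lay under its own background. Fitted without the filter, the Hoxa7 difference had an adjusted p of 0.155 in Snf5-/- and 0.343 in Brg1-/- cells by limma.

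**Figure D1:**
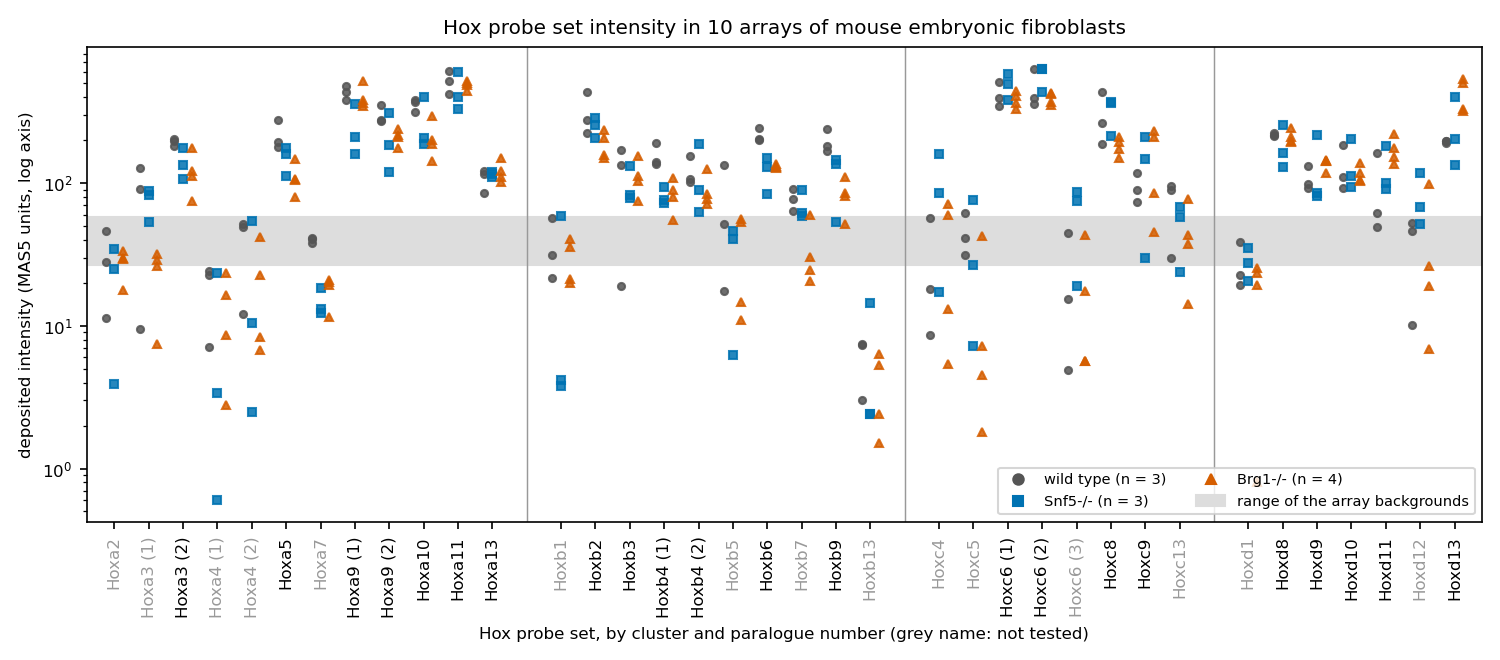
Deposited intensity (log axis) of the 37 probe sets of single Hox genes, ordered by cluster and paralogue number, with 1 point per array coloured by group; the grey band spans the array backgrounds from 26.7 to 57.4, and grey names were not tested. Hoxb13 lies under the band in every array, and Hoxa9, Hoxa11 and Hoxd13 lie above it in every array.

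Over the arrays of all 3 groups, the brightest tested probe sets by cluster were Hoxa11, Hoxb2, Hoxc6 (1427362_x_at) and Hoxd13. This ranks probe sets and is not a comparison of transcript amounts. In every wild type array Hoxd8 was brighter than Hoxd13, with 161.8, 190.7 and 206.3 against 149.9, 168 and 180.1. Hoxd8 was also brighter in Snf5-/- replicate 1 (171.5 against 141.9), and Hoxd13 was brighter in the other arrays. Hoxa11, which patterns the forearm, read 420.6, 371 and 482 in wild type cells, 424, 354 and 536 in Snf5-/- cells and 613.5, 535, 534 and 535 in Brg1-/- arrays. All Brg1-/- arrays were above all wild type arrays, while Snf5-/- replicate 3 reached the Brg1-/- values. The Brg1-/- difference of Hoxa11 was 0.39 ± 0.15 (SE, adjusted p 0.081 by limma), and it was -0.06 on the deposited scale. Hoxb2, a hindbrain segment gene, read 309, 245 and 208 in wild type cells, 271, 303 and 189 in Snf5-/- cells and 186, 179, 221 and 249.9 in Brg1-/- arrays. These groups overlapped. The Hoxb2 difference from wild type was -0.27 ± 0.21 in Brg1-/- cells (adjusted p 0.366 by limma; -0.71, adjusted p 0.0261, on the deposited scale) and -0.0047 ± 0.22 in Snf5-/- cells (adjusted p 0.992 by limma; -0.28 on the deposited scale).

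In Brg1-/- cells the Hox genes that rose were Hoxd13 and Hoxd11, the 5′ Hoxd genes of the digits and forearm. Hoxd13 (1422239_at) read 149.9, 168 and 180.1 in wild type cells, 142, 213 and 360.4 in Snf5-/- cells and 390.4, 389, 534 and 596 in Brg1-/- arrays. After normalization every Brg1-/- array was above every wild type and every Snf5-/- array. On the deposited scale every Brg1-/- array was above every wild type array, but the mutant groups overlapped. The means were 166 ± 15.2 in wild type (SD, n = 3) and 477 ± 104 in Brg1-/- cells (SD, n = 4), a difference of 1.50 ± 0.27 on the log2 scale or 2.83-fold (limma, adjusted p 0.00203). The Hoxd13 difference on the deposited scale was 1.08 (adjusted p 0.0064 by limma), and its call held in each of 10 fits that left out 1 array on either scale. In RNA from a whole culture, more cells of a type and more RNA per cell cannot be told apart, nor can fewer and less.

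Hoxd11 (1450584_at) read 124, 42.5 and 54.2 in wild type cells, 106, 93.6 and 166 in Snf5-/- cells and 210.4, 163, 161 and 233 in Brg1-/- arrays. After normalization the Brg1-/- arrays were all above the wild type arrays, of which replicate 1 stood well above the other 2. On the deposited scale the groups overlapped, with 162.7 in wild type replicate 1 and 135.4 to 220.3 in Brg1-/- arrays. Wild type replicates 2 and 3 read 49.2 and 61.5 there, under the 40th percentiles of their arrays (120.2 and 113.6). Replicate 3 was thus close to its background of 57.4. The difference from wild type was 1.52 ± 0.36 or 2.87-fold (limma, adjusted p 0.00886), and 1.09 on the deposited scale (adjusted p 0.0274). It passed in all 10 leave-one-out fits after quantile normalization, and in 6 of 10 on the deposited scale, where the adjusted p was 0.135 without wild type replicate 2, 0.0899 without wild type replicate 3, 0.0544 without Brg1-/- replicate 1 and 0.0712 without Brg1-/- replicate 4.

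These 2 probe sets were 9.09% of the 22 tested Hox probe sets, where 13% of all tested probe sets were higher in Brg1-/- cells. No Hox probe set was lower, where 12.1% of all were. An unadjusted p under 0.05 by limma, in either direction, was found for 7 of the 22 and for 5464 of all 14506 tested. The same 2 were higher on the deposited scale, against 3.21% of all probe sets, and 7 were lower (31.8%), against 42.8% of all: Hoxa3 (a gene of thymus and pharynx), Hoxa5 (a gene of the lung), Hoxa10, Hoxb2, a Hoxb4 probe set (1451761_at), Hoxb6 and Hoxb9. The share of Hox probe sets called was thus near or under that of all probe sets in each direction, apart from the higher calls on the deposited scale and with trimmed-mean scaling, where 5 (22.7%) were higher against 16.3% of all. The 5 were Hoxa11, Hoxc6 (1427361_at), Hoxd9, Hoxd11 and Hoxd13. Without overlap between groups after normalization, 7 of 22 (31.8%) were higher in Brg1-/- arrays, against 19.2% of all tested probe sets, and 2 (9.09%) were lower, against 18.7%. The 7 were Hoxa9 (1421579_at), Hoxa11, Hoxc6 (1427361_at), Hoxd8, Hoxd9, Hoxd11 and Hoxd13, and the 2 were Hoxb6 and Hoxb9.

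**Figure D2:**
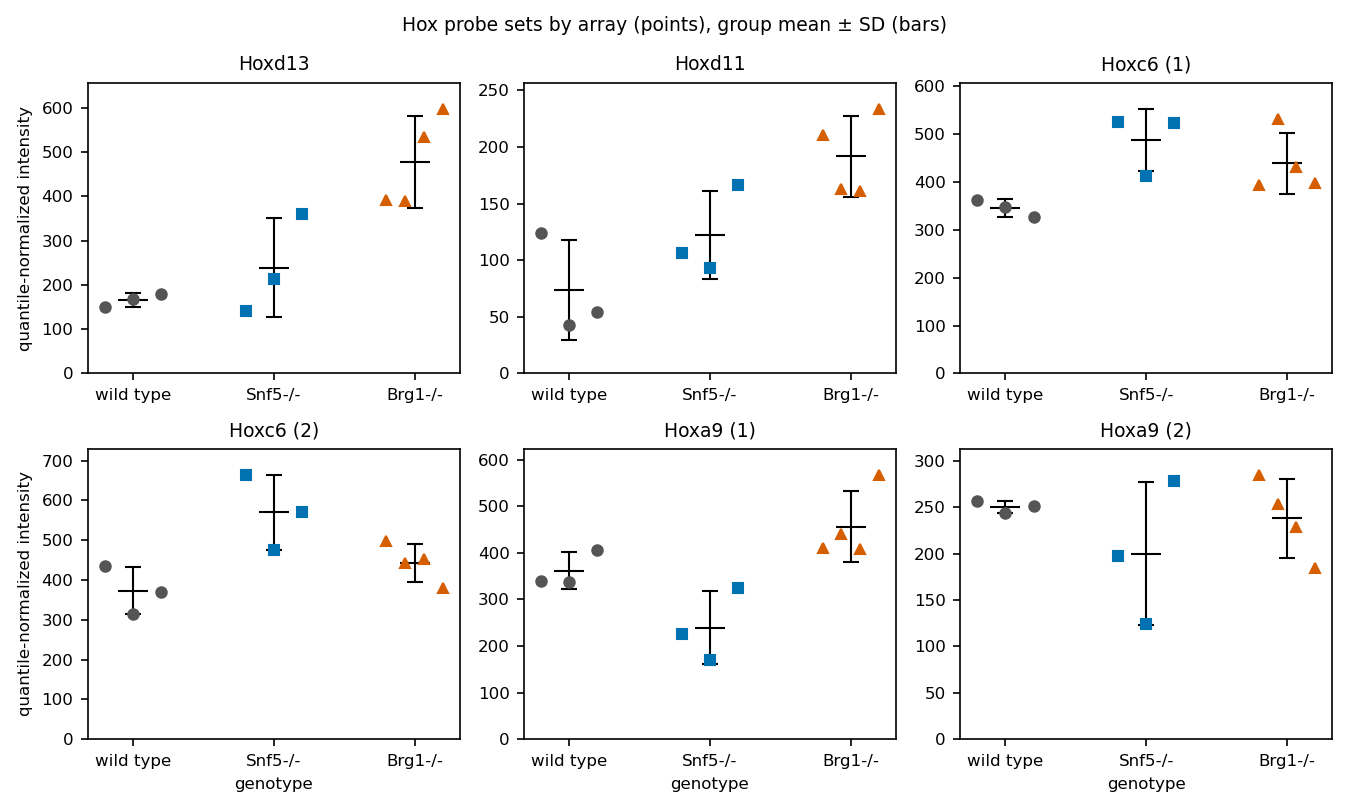
Quantile-normalized intensity in each array (points) with the mean and SD of each group for the 6 probe sets of Hoxd13, Hoxd11, Hoxc6 and Hoxa9, where (1) and (2) number a gene's probe sets in the order 1427361_at, 1427362_x_at and 1421579_at, 1455626_at. The 4 Brg1-/- arrays of Hoxd13 lie between 389 and 596, above all others, and Snf5-/- replicate 3 is the highest Snf5-/- array of Hoxd13 and Hoxd11.

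The other tested Hoxd genes lay in the same direction after normalization without passing the test. Hoxd9 ran from 142 to 172 in Brg1-/- arrays against 79.1 to 103 in wild type, a difference of 0.78 ± 0.30 (limma, adjusted p 0.0742). Hoxd9 was under the 40th percentile of every wild type array. It reached the filter only through the Brg1-/- arrays and Snf5-/- replicate 3. Hoxd8 differed by 0.36 (adjusted p 0.20) and Hoxd10 by 0.32 (adjusted p 0.466 by limma), and both were below 0 on the deposited scale, at -0.05 and -0.10. The untested Hoxd1 and Hoxd12 differed by -0.98 ± 1.07 and 0.10 ± 0.81 when fitted without the filter. The 5 tested Hoxd probe sets had a median difference of 0.78 after normalization, which is the value of Hoxd9, with all 5 above 0. On the deposited scale their median was 0.37, with 3 of 5 above 0. The medians of all probe sets were 0.00 and -0.47. These Hoxd values leave out Hoxd1 and Hoxd12 and include Hoxd9, which passed the filter without a wild type array. For the 5 tested Hoxd probe sets the values by array follow. By array, their median deviation from the wild type mean was 0.67 to 0.95 in the Brg1-/- arrays and -0.12 to 0.21 in the wild type arrays. The Brg1-/- medians of the other clusters were -0.09 for Hoxa, -0.29 for Hoxb with 5 of 6 probe sets below 0, and 0.30 for Hoxc. The deposited values gave -0.51, -0.71 and -0.15.

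No tested gene of the Hoxa or Hoxb cluster passed the test against wild type in either mutant after normalization. Hoxa3 (1452421_at) ran from 150.2 to 189 in wild type, 112 to 186 in Snf5-/- and 89.6 to 186 in Brg1-/- arrays, and its Brg1-/- difference was -0.35 ± 0.27. Hoxa5 ran from 157 to 205 in wild type and from 84.9 to 176 in Brg1-/- arrays (-0.58 ± 0.28, adjusted p 0.149 by limma). Hoxa10, a gene of the lumbar spine and uterus, ran from 276 to 347.5 in wild type, 197 to 361 in Snf5-/- and 170.5 to 311 in Brg1-/- arrays (-0.41 ± 0.24 in Brg1-/- cells). Hoxb6, a trunk gene, read 183, 179 and 182.5 in wild type and ran from 86.6 to 139 in Snf5-/- and from 138 to 155 in Brg1-/- arrays. Its differences from wild type were -0.62 ± 0.22 in Snf5-/- cells (adjusted p 0.0708) and -0.31 ± 0.20 in Brg1-/- cells (adjusted p 0.292 by limma).

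The probe sets of Hoxb4, a gene used to expand blood stem cells, disagreed. The first (1451761_at) ran from 117 to 147 in wild type and from 69.6 to 98.0 in Snf5-/- arrays, a difference of -0.69 ± 0.31 (adjusted p 0.15 by limma). The second (1460379_at) ran from 87.4 to 119 in wild type and from 65.5 to 198 in Snf5-/- arrays, a difference of 0.04 ± 0.41 (adjusted p 0.957 by limma) that was -0.23 on the deposited scale. Hoxb3 and Hoxc9 spread widely within groups, from 16 to 129 in wild type arrays for Hoxb3 and from 45.5 to 280.0 in Brg1-/- arrays for Hoxc9, with SEs of 0.62 and 0.69 for the Brg1-/- difference. Hoxc8, a thoracic gene, ran from 172 to 308 in wild type, 225 to 392.5 in Snf5-/- and 178 to 254 in Brg1-/- arrays, and no comparison of it passed.

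Along the clusters, the 11 tested probe sets of paralogues 9 to 13 had a median Brg1-/- difference of 0.39 with 8 of 11 above 0, and the 11 of paralogues 1 to 8 a median of -0.19 with 4 of 11 above 0. From the deposited values the medians were -0.06 and -0.62. Spearman's rho between the paralogue number and the Brg1-/- difference over the 22 probe sets was 0.45 on both scales, given as a description, since all points come from the same arrays. Hoxb9 went against this order, with 98.4, 133, 89.8 and 52.3 in Brg1-/- arrays against 147 to 180.0 in wild type (-0.89 ± 0.40, adjusted p 0.128 by limma; -1.30, adjusted p 0.00956, on the deposited scale). Hoxa13, the other digit gene, differed by 0.55 ± 0.24 (adjusted p 0.108 by limma; 0.16 on the deposited scale).

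**Figure D3:**
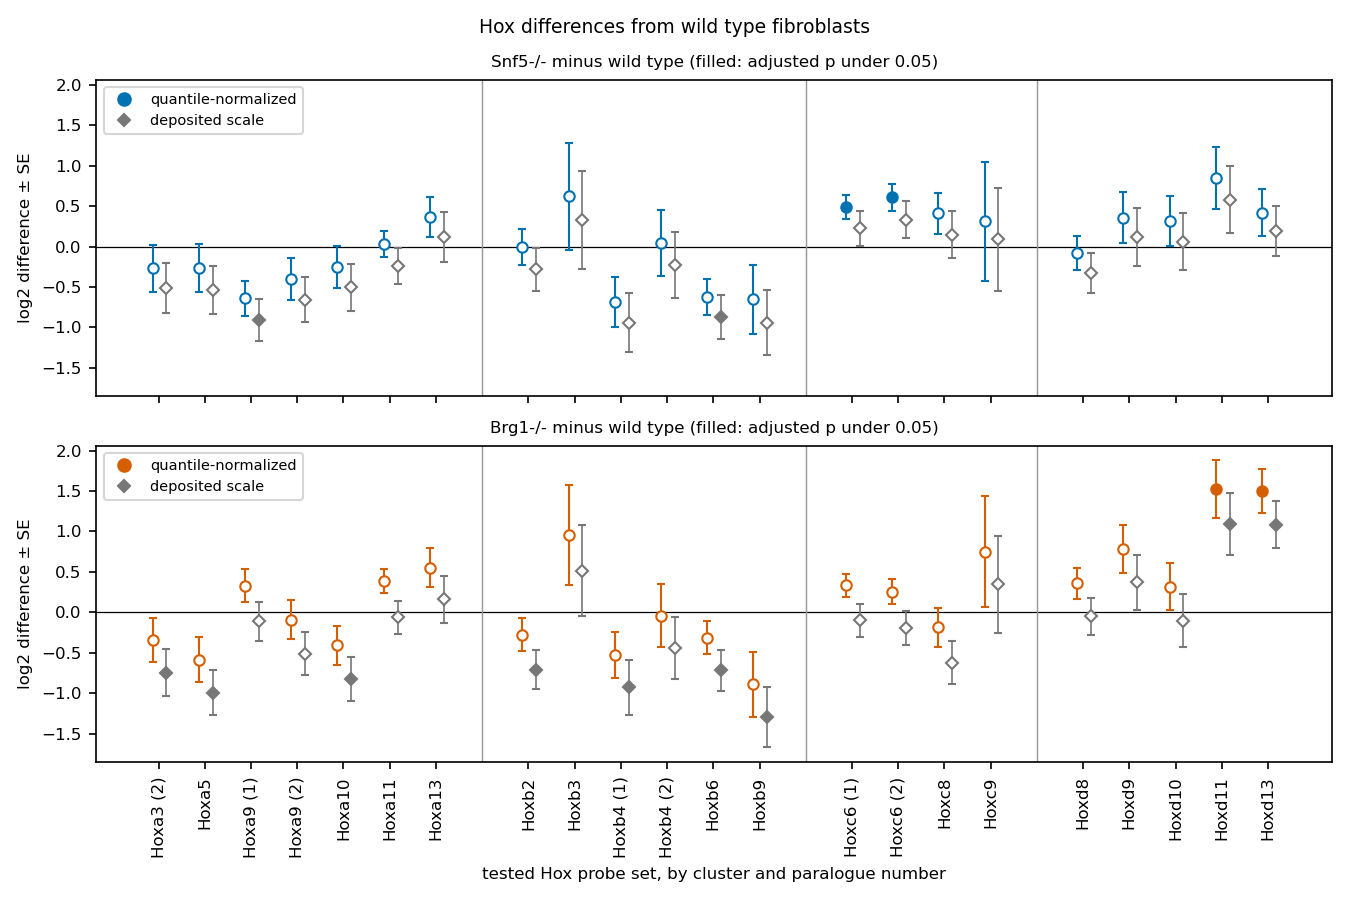
Log2 difference from wild type with its SE for each tested Hox probe set in Snf5-/- and Brg1-/- cells, ordered by cluster and paralogue number; circles are quantile-normalized values, diamonds deposited values, and filled symbols have an adjusted p under 0.05. Hoxd11 and Hoxd13 stand at 1.52 and 1.50 in Brg1-/- cells, and the diamonds lie below the circles throughout.

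Part of the list of transcription factors that mark limb and axial position was higher in Brg1-/- cells after normalization. Of 13 tested probe sets of 10 such genes, 5 were higher in Brg1-/- cells and none was lower by limma after normalization (median 0.35), against 13% and 12.1% of all tested probe sets. On the deposited scale 1 was higher, Lhx2, and 1 lower, Foxf1 (median -0.05), against 3.21% and 42.8% of all. The 5, with differences of 0.62 to 1.24, were Lhx2 (1.22, adjusted p 0.00691 by limma), a limb bud factor, both Pitx1 probe sets and Tbx4, which mark the hindlimb, and Shox2 of the proximal limb. Their 14 probe sets summed to 2760 to 3036 in wild type cells, 2732 to 3492 in Snf5-/- cells and 3094 to 3709 in Brg1-/- arrays, and no probe set of the list was at background in a whole group. In Snf5-/- cells 3 of the 13 were higher, Lhx2, a Pitx1 probe set and Shox2, against 8.71% of all. None was called on the deposited scale by limma, against 2.81% higher and 17.7% lower of all. Their part in the Hoxd13 and Hoxd11 result was not tested.

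Markers of other embryonic tissues are given with their calls by limma, beside 13% of all tested probe sets higher and 12.1% lower in Brg1-/- cells (3.21% and 42.8% on the deposited scale). The 5 skeletal muscle probe sets summed to 876 to 988 in wild type cells, 509 to 1085 in Snf5-/- cells and 409 to 628 in Brg1-/- arrays, and none was at background in a whole group. Of 3 tested, 1 was lower in Brg1-/- cells, Actc1, and 2 on the deposited scale. The 7 epithelial probe sets summed to 866 to 1141, 881 to 1365 and 626 to 811 in the same order, with 1 of 7 at background in wild type and 3 of 7 in each mutant. Of 3 tested, 1 was lower in Brg1-/- cells, Krt18, and 3 on the deposited scale.

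The 5 endothelial probe sets summed to 465 to 557, 377 to 439 and 367 to 535, and the 2 tested moved in opposite directions in Brg1-/- cells. Tek, an angiopoietin receptor, was higher by 1.89 (adjusted p 0.000975) and Kdr, a VEGF receptor, differed by -0.79 (adjusted p 0.011 by limma). Tek was also higher in Snf5-/- cells (1.41, adjusted p 0.0122 by limma), and all these calls held on the deposited scale. The 14 neural and neural crest probe sets summed to 4443 to 5322, 3797 to 6824 and 3686 to 4422. Of 8 tested, 1 was lower in Brg1-/- cells, a Nes probe set (1449022_at, -1.16, adjusted p 0.00337 by limma), and 4 were lower on the deposited scale. In Snf5-/- cells 1 of the 8 was higher, an Ncam1 probe set, against 8.71% of all. The Sox10 probe sets disagreed. One too dim to test (1425369_a_at) was above background in 0 of 3 wild type, 1 of 3 Snf5-/- and 4 of 4 Brg1-/- arrays. Another too dim to test (1451689_a_at) went the other way, with 3 of 3, 0 of 3 and 1 of 4. The Sox10 probe set that was tested (1424985_a_at) did not pass. The part of these tissues in the Hox results was not tested.

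In Snf5-/- cells the Hox gene that rose was Hoxc6, a gene of the thoracic segments, in both of its tested probe sets. The first (1427361_at) read 362, 347 and 326 in wild type cells, 524, 412 and 523 in Snf5-/- cells and 394, 531, 431 and 398 in Brg1-/- arrays. The second (1427362_x_at) read 434, 315.5 and 369.9 in wild type cells, 663, 476 and 571.5 in Snf5-/- cells and 497, 443, 452 and 381 in Brg1-/- arrays. In both, every Snf5-/- array was above every wild type array. The differences were 0.49 ± 0.15 or 1.40-fold (adjusted p 0.0459) and 0.61 ± 0.17 or 1.53-fold (adjusted p 0.0267 by limma). From the deposited values they were 0.22 and 0.33, with adjusted p-values of 0.468 and 0.311, so no call was made there. In Brg1-/- cells the Hoxc6 differences from wild type were 0.34 (adjusted p 0.104) and 0.25 (adjusted p 0.259 by limma). From the deposited values these were -0.10 and -0.19. With trimmed-mean scaling the first passed in Brg1-/- cells (adjusted p 0.0293 by limma). Between the mutants neither Hoxc6 probe set passed (adjusted p 0.571 and 0.203 by limma).

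The Hoxc6 calls in Snf5-/- cells also changed when single arrays were left out. The second probe set passed in 6 of 10 leave-one-out fits, and its adjusted p by limma was 0.107 without wild type replicate 2, 0.0776 without wild type replicate 3, 0.0943 without Snf5-/- replicate 1 and 0.0585 without Snf5-/- replicate 3. The first passed in 3 of 10, with adjusted p-values of 0.0521 to 0.143 without wild type replicate 1, 2 or 3, Snf5-/- replicate 1 or 3, or Brg1-/- replicate 1 or 3. The third Hoxc6 probe set (1427454_at) was too dim to be tested, and the probe sets of 1 gene are not independent measurements of a culture.

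After normalization, 2 of 22 Hox probe sets (9.09%) were higher in Snf5-/- cells, against 8.71% of all tested probe sets, and none was lower, against 8% of all. An unadjusted p under 0.05 by limma, in either direction, was found for 6 of 22 and for 4496 of all 14506 tested. On the deposited scale none was higher, against 2.81%, and 2 were lower (9.09%), against 17.7%: Hoxa9 (1421579_at, adjusted p 0.0191) and Hoxb6 (adjusted p 0.0301 by limma). Groups without overlap gave 2 higher probe sets, both of Hoxc6, against 17.3% of all, and 3 lower ones (13.6%), against 17.5%: Hoxa9 (1421579_at), Hoxb4 (1451761_at) and Hoxb6. These shares were near or under those of all probe sets.

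By cluster, the Snf5-/- medians after normalization were -0.27 for Hoxa, -0.31 for Hoxb, 0.45 for Hoxc with 4 of 4 above 0, and 0.36 for Hoxd with 4 of 5 above 0. Hoxd13 differed from wild type by 0.42 ± 0.29 (adjusted p 0.353) and Hoxd11 by 0.84 ± 0.38 (adjusted p 0.157 by limma). Both comparisons share the wild type arrays, so the Snf5-/- and Brg1-/- differences are given side by side only. Hoxd12, the dim gene between the pair, read 70.9, 52.0 and 109 in Snf5-/- arrays, 8.85, 40.5 and 46.3 in wild type and 8.20, 33.3, 20.5 and 99.6 in Brg1-/- arrays. All Snf5-/- arrays were above the wild type arrays, and without the filter the difference was 1.53 ± 0.86 (adjusted p 0.327 by limma).

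Snf5-/- replicate 3 set much of the Snf5-/- values at the 5′ ends of the clusters. It was the highest Snf5-/- array in 9 of the 11 tested probe sets of paralogues 9 to 13, as it was in 35.4% of all tested probe sets. Its Hoxd genes deviated from the wild type mean by a median of 1.12, against -0.06 and -0.02 in the other 2 arrays. Without it, the Snf5-/- median of Hoxd was 0.06 and that of paralogues 9 to 13 was -0.12. Leaving it out also moved the Brg1-/- count from 2 to 5 of 22 (22.7%), against 27% of all probe sets tested in that fit, with Hoxd9 (adjusted p 0.0226), Hoxa11 (adjusted p 0.0448) and, lower, Hoxb9 (adjusted p 0.0479 by limma) added, while the Brg1-/- median of Hoxd was 0.77.

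**Figure D4:**
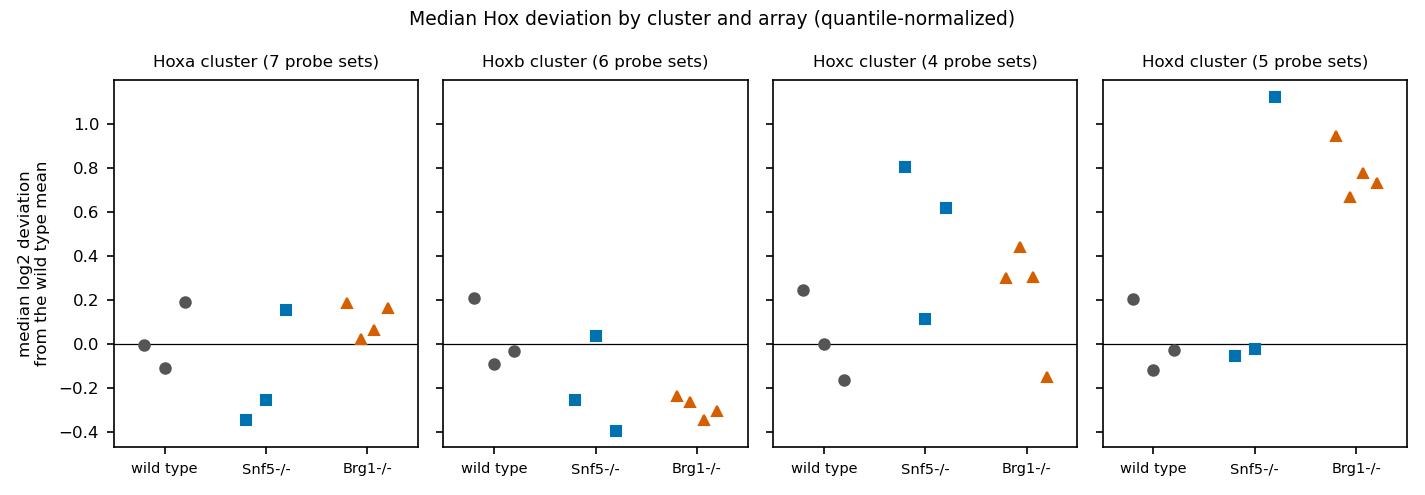
Median log2 deviation from the wild type mean over the tested probe sets of each Hox cluster, with 1 point per array, after quantile normalization. The 4 Brg1-/- arrays lie between 0.67 and 0.95 in the Hoxd cluster, and Snf5-/- replicate 3 lies at 1.12, apart from the other Snf5-/- arrays.

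Between the mutants, Hoxa9 and Hoxd13 were higher in Brg1-/- than in Snf5-/- cells. Hoxa9 (1421579_at) read 339, 338 and 407 in wild type cells, 225, 169 and 323.5 in Snf5-/- cells and 410.1, 440.5, 408 and 567 in Brg1-/- arrays. After normalization the Snf5-/- arrays lay under all others and the Brg1-/- arrays above all others, though the lowest Brg1-/- array barely exceeded the highest wild type array. On the deposited scale the Brg1-/- arrays, from 345.1 to 514.4, overlapped with wild type (380.5 to 478.4) and Snf5-/- arrays (160.2 to 357.6). The difference between the mutants was 0.97 ± 0.20 or 1.96-fold (limma, adjusted p 0.0265), and 0.80 on the deposited scale (adjusted p 0.0728). Against wild type it was -0.64 ± 0.22 in Snf5-/- cells (adjusted p 0.0654) and 0.33 ± 0.20 in Brg1-/- cells (adjusted p 0.269 by limma; -0.11 on the deposited scale).

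The other Hoxa9 probe set (1455626_at) did not show this. It read 256.5, 244 and 251 in wild type cells, 197, 124 and 278 in Snf5-/- cells and 285, 254, 229 and 185 in Brg1-/- arrays, with overlapping mutant groups and a difference of 0.31 ± 0.24 (adjusted p 0.487 by limma). The call for the first probe set passed in 6 of 10 leave-one-out fits, and its adjusted p was 0.0642 without Snf5-/- replicate 1, 0.0578 without Snf5-/- replicate 2, 0.0658 without Brg1-/- replicate 2 and 0.0607 without Brg1-/- replicate 3. On the deposited scale it passed in 1 of 10 such fits.

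Hoxd13 differed between the mutants by 1.08 ± 0.27 or 2.12-fold (limma, adjusted p 0.0474), and by 0.89 on the deposited scale (adjusted p 0.0944). This call passed only in the leave-one-out fit without Snf5-/- replicate 3 (1.43, adjusted p 0.00909), and the adjusted p was 0.0602 to 0.133 in the other 9 fits. Hoxd11 differed by 0.68 ± 0.36 (adjusted p 0.29 by limma) and Hoxc8 by -0.60 ± 0.24 (adjusted p 0.165 by limma).

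These 2 were 9.09% of the Hox probe sets, against 2.1% of all tested probe sets higher in Brg1-/- than in Snf5-/- cells, and none was lower, against 1.9%. An unadjusted p under 0.05 by limma, in either direction, was found for 6 of 22 and for 3236 of all 14506 tested. On the deposited scale none was called in either direction by limma, against 0.462% higher and 3.08% lower of all. Groups without overlap numbered 2 higher, the same Hoxa9 and Hoxd13 probe sets, against 9.41% of all, and 0 lower, against 8%. The antisense transcript Hoxa11os ran from 94 to 339 over all arrays, highest in Snf5-/- replicate 3, and no comparison of it passed the test. It overlaps Hoxa11, and the labels do not say that the target preparation keeps strand.

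The partners and regulators of Hox genes were read against the same shares of all probe sets. The TALE homeodomain proteins of the Pbx, Meis and Pknox families, which bind DNA together with Hox proteins, had 9 tested probe sets, of which none was called in Snf5-/- cells by limma, against 8.71% higher and 8% lower of all, and 1 was higher in Brg1-/- cells, against 13% of all. It was Pbx3 (0.57, adjusted p 0.0221; 0.14, adjusted p 0.593, on the deposited scale, by limma). The Pbx3 adjusted p was 0.0889 without wild type replicate 1 and 0.0552 without wild type replicate 3. Of the factors that act upstream of the clusters or lie beside them, 5 of 8 probe sets were at background in each whole group, the Cdx genes among the dim ones. Gmnn, geminin, an inhibitor of DNA replication licensing that also binds Hox proteins, read 207, 215 and 150.3 in wild type cells, 371, 238 and 222 in Snf5-/- cells and 728, 618, 597 and 464 in Brg1-/- arrays. The Brg1-/- arrays were all above the rest, with a difference from wild type of 1.66 (adjusted p 0.000206) and of 1.22 on the deposited scale (adjusted p 0.00042 by limma).

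Among 9 tested probe sets of trithorax group and histone H3K27 demethylase genes, 2 were higher in each mutant and none was lower after normalization. Of all probe sets, 8.71% were higher and 8% lower in Snf5-/- cells, and 13% and 12.1% in Brg1-/- cells. On the deposited scale 1 was higher in Snf5-/- cells, against 2.81% of all. None was higher and 1 was lower there in Brg1-/- cells, against 3.21% and 42.8% of all. The 2 higher after normalization were the same probe sets in both mutants. One was a Kdm6a probe set (1427672_a_at), for the demethylase Utx, with 1.41 in Snf5-/- cells (adjusted p 0.000811; 1.14, adjusted p 0.0054, on the deposited scale) and 0.99 in Brg1-/- cells (adjusted p 0.00289; 0.56, adjusted p 0.0669, on the deposited scale). The other Kdm6a probe set (1427235_at) did not pass, with adjusted p-values of 0.173 and 0.638 by limma. The second was a Men1 probe set (1416347_at), for menin, a partner of the MLL methyltransferase, with 0.53 in Snf5-/- cells (adjusted p 0.0239; 0.28, adjusted p 0.317, on the deposited scale) and 0.60 in Brg1-/- cells (adjusted p 0.00613 by limma; 0.18, adjusted p 0.431, on the deposited scale). The other Men1 probe set (1416348_at) did not pass, with 0.45 (adjusted p 0.247) and 0.61 (adjusted p 0.0783 by limma). Kmt2a, the MLL gene itself, was not called in either mutant after normalization, and 1 of its 2 probe sets (1452377_at) was the one lower in Brg1-/- cells on the deposited scale (-0.49, adjusted p 0.0338 by limma). None of the 5 tested probe sets for retinoic acid receptors and the retinoic acid enzyme Aldh1a2 was called by limma on the quantile-normalized scale. The shares of all were 8.71% higher and 8% lower in Snf5-/- cells, and 13% and 12.1% in Brg1-/- cells. On the deposited scale 1 was lower in each mutant, against 17.7% of all in Snf5-/- and 42.8% in Brg1-/- cells. These were a Rarg probe set in Snf5-/- and Rara in Brg1-/- cells.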

How the data were processed

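The 10 samples are Affymetrix arrays with 1 RNA sample each. The deposited values are intensities on a linear scale, made by the authors with the MAS5 algorithm per the submitters' processing notes, and the target value of its scaling is not given in the sources used here. Intensities, all above 0, were put on the log2 scale with no pseudocount and quantile-normalized, because deposited array medians differed by up to 0.68 on the log2 scale. The test covered the 14506 of 22690 probe sets that reached an array's 40th percentile on at least 3 arrays (64 controls were left out), each as a row of its own.

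The 3 group means were fitted in limma 3.58.1 (R 4.3.3) with lmFit and eBayes with an intensity trend, two-sided, with Benjamini-Hochberg adjustment within each of 3 comparisons, and tested on simulated data. No 2 arrays held identical values. Alternatives were the deposited and trimmed-mean scales, other filters, a pseudocount of 16, no trend, 2 groups only, 1 probe set per gene, a replicate block, and leaving out each array. Probe sets were named from the platform annotation: 20380 have 1 symbol, 691 several and 1606 none. Promoters are from RefSeq.

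The Hox genes, the background rule, the marker and cofactor lists and the alternatives were chosen with earlier results of these data known. Values in every array are given for Hox probe sets past the threshold in any comparison and for the brightest of each cluster, with others by range and count. Per-array values of Hoxa7, Hoxb9, Hoxd12 and the second Hoxa9 probe set were added after seeing them.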

Additional observations from a re-analysis of the deposited data

Results flagged for a closer look

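In the Brg1-/- group of 4 arrays, 4 of the 37 Hox probe sets had an array far from the other 3 on the log2 scale. The gap passes Dixon's test, which chance does in about 1 of 20 groups, so some such gaps arise by chance among 37. The share of all probe sets that pass is not given here. Hoxa11 read 613.5 in Brg1-/- replicate 1, above 534 to 535 in the others, and a Hoxb4 probe set (1460379_at) read 151 in Brg1-/- replicate 2, above 81.5 to 86.4. Hoxa2 in Brg1-/- replicate 4 (16.9) and Hoxd1 in Brg1-/- replicate 3 (0.83) were the lowest of their groups, and both genes were at background in every Brg1-/- array.

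Against the same wild type arrays, the mutants differed from each other in 2 Hox probe sets by limma's contrast of Brg1-/- minus Snf5-/-. Hoxd13 differed by 1.08 on the log2 scale (adjusted p 0.0474) and a Hoxa9 probe set (1421579_at) by 0.97 (adjusted p 0.0265), with all 4 Brg1-/- arrays above all 3 Snf5-/- arrays in both after normalization. On the deposited scale the mutant groups overlapped in both.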

How the results depend on the processing

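Over all alternatives, 626 of 724 values for single probe sets stayed on their side of the threshold, 88 lost a call, 10 gained one, and no called value changed sign. The main counts of Hox probe sets were 2 for Snf5-/- against wild type, 2 for Brg1-/- against wild type and 2 between the mutants, and those of all probe sets 2425, 3650 and 580. On the deposited scale the Brg1-/- against wild type counts were 9 and 6675, and no Hox probe set (0) differed between the mutants. The share of higher among called probe sets was then 13.7%, 6.98% and 13.04%, against 52.1%, 51.7% and 52.4%. Scaling to the trimmed mean gave 5 Hox calls in Brg1-/- against wild type (22.7%, all higher, against 16.3% of all probe sets higher) and 1 between the mutants. Testing without a filter gave 1 in Snf5-/- against wild type and 1 between the mutants, each 2.7% of 37, against 9.48% and 1.89% of all. The 60th percentile filter, which left Hoxd11 and Hoxb2 out, gave 1 in Brg1-/- against wild type. That was 14.3% of 7 Hox probe sets, against 32.3% of all. Without an intensity trend, 0 Hox and 319 of all probe sets differed between the mutants. With 2 groups only, the Hox counts were 0, 4 and 0, and 223 of all probe sets differed between the mutants. With 1 probe set per gene, which drops a Hoxc6 probe set, 1 Hox gene passed in Snf5-/- cells, and all counts were 1519, 2330 and 373. Leaving out 1 array gave Hox counts of 0 to 2, 2 to 5 and 0 to 2, and counts over all probe sets of 1340 to 2579, 2529 to 3914 and 128 to 806. Replicate numbers are shared between groups. The deviations of same-numbered arrays had correlations of -0.088 to 0.12, and 5 of 10 arrays correlated best with their own number. Whether such arrays share more than a number was not tested. With a replicate block the Hox count in Snf5-/- cells was 1, and the first Hoxc6 probe set had an adjusted p of 0.0773 by limma. The Hoxd13 difference between the mutants had an adjusted p of 0.0543 with trimmed-mean scaling, 0.0704 without a filter, 0.0857 without a trend and 0.0929 with 2 groups only. Taking each array's 40th percentile as background put 12 Hox probe sets at background in all arrays and 10 above it in all, and the median control put 0 at background. The deposited-scale fits that left out 1 array were added after seeing the data. Where these counts moved, the cause was not tested.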
